A study of Homo sapiens with 6 samples.

Results

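The interleukin-1 (IL-1) ligands and receptors were examined in IKPRAB-36 cells cultured with or without a progestin. The 10 genes were the ligands IL1A, IL1B and IL18, the receptor antagonist IL1RN, the receptor chains IL1R1, IL1R2, IL1RAP, IL1RL1 and IL18R1, and the receptor-associated kinase IRAK1. They were chosen by name, with earlier results of these data known. Each was followed through every probe set annotated to it alone, which gave 23 of the 54613 probe sets tested and 10 of 19775 genes. IKPRAB-36, labelled IKPRAB36, is an Ishikawa endometrial cancer line stably transfected with progesterone receptors A and B (PRA and PRB), and only this single line was studied. Control cells (control 1 to 3) received no MPA, and treated cells (MPA 1 to 3) received 1 nM medroxyprogesterone acetate (MPA), a synthetic progestin. Both groups were kept for 48 h in medium with 5% charcoal stripped fetal calf serum, hygromycin and neomycin, and each of the 6 samples was hybridized to 1 Affymetrix U133 Plus 2.0 array. Nothing in the labels says that the 3 arrays of a group came from separate cultures, so the p-values rest on array-to-array spread alone, and that spread may be technical.

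IL-1 alpha and IL-1 beta are inflammatory cytokines that bind the type I receptor, encoded by IL1R1. The bound receptor recruits the accessory chain IL1RAP and, inside the cell, the adaptor MYD88 and kinases of the IRAK family, which leads to activation of NF-kB and of MAP kinases. The pathway is held back at several points: the antagonist IL1RN occupies the type I receptor without signaling, and the type II receptor IL1R2 binds IL-1 but lacks a signaling tail, so that it acts as a decoy. IL-18 and IL-33 are related cytokines that use IL18R1 and IL1RL1 as their receptors. In the endometrium IL-1 is known for its part in implantation and in the inflammatory changes around menstruation.

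The deposited values were RMA signals on the log2 scale, in which a difference of 1 is a doubling of the signal. Calls required an adjusted p under 0.05 (limma, Benjamini-Hochberg over all probe sets tested) together with a change of at least 1.25-fold. Of all probe sets, 663 were called higher with MPA and 444 lower; after centring the arrays on housekeeping genes the split was 546 and 606. Array medians ranged from 5.16 to 5.28, and a probe set under that level may not be told apart from background. FKBP5, a co-chaperone induced by progestins, went from 9.81 ± 0.04 to 13.36 ± 0.06 (SD, n = 3 arrays each), an 11.8-fold rise. PGR, the progesterone receptor gene, was at 10.22 ± 0.04 and 10.70 ± 0.33 (SD, n = 3; adjusted p = 0.294). All 5 epithelial markers (EPCAM, CDH1, KRT8, KRT18 and KRT19) lay above the array medians and none was called in limma. The MPA arrays lay below the control arrays for EPCAM (means of 11.21 and 10.67, adjusted p = 0.0586) and for CDH1 (8.30 and 7.54, adjusted p = 0.128), both called lower by SAM, and the keratin gene means were 13.12 and 13.35 (KRT8), 14.02 and 14.05 (KRT18) and 9.46 and 9.73 (KRT19). Their part in the results below was not tested. Of 7 leukocyte markers measured, 5 lay under the array median on all 6 arrays, among them PTPRC and CD14. CD3E lay above it on all 6 (means of 5.49 and 5.45). The mean signal of the 7 markers was 4.20 to 4.29 on control and 4.15 to 4.46 on MPA arrays. Among 3 endothelial markers, 2 lay under the medians and PECAM1 above them (means of 6.30 and 6.12). Among 3 stromal markers, 1 lay under the medians. The stromal COL1A1 had means of 8.97 and 8.17 (limma, adjusted p = 0.168) and was called lower by SAM. The poly-A spike-in probe sets averaged 6.19 on MPA 3 and 7.50 to 8.23 on the other arrays.

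The gene of the signaling IL-1 receptor, IL1R1, rose with MPA, and no other of the 10 genes passed the test. Both IL1R1 probe sets were higher, the brighter one 5.11-fold. The decoy receptor gene IL1R2 and the cytokine gene IL18 lay lower on all 3 MPA arrays than on any control array, and did not pass (adjusted p of 0.0575 for IL18, 0.0590 and 0.212 for the IL1R2 probe sets). The ligand genes IL1A and IL1B, the antagonist gene IL1RN and the other receptor chains had log2 fold changes between -0.12 and 0.45, and IRAK1 had -0.20 and -0.02 in its 2 probe sets.
The call of 2 of 23 probe sets, both higher, compares with 2.03% of all probe sets called in either direction, 1.21% higher and 0.813% lower. Counted by gene, 1 of 10 was higher, where 1.74% of all genes were higher and 1.16% lower. In 8 of the 23 probe sets the 3 MPA arrays did not overlap with the 3 control arrays, 5 above and 3 below them, against 15.4% of all probe sets tested, 7.94% above and 7.43% below. The median log2 fold change of the 23 was 0.02.

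**Figure D1:**
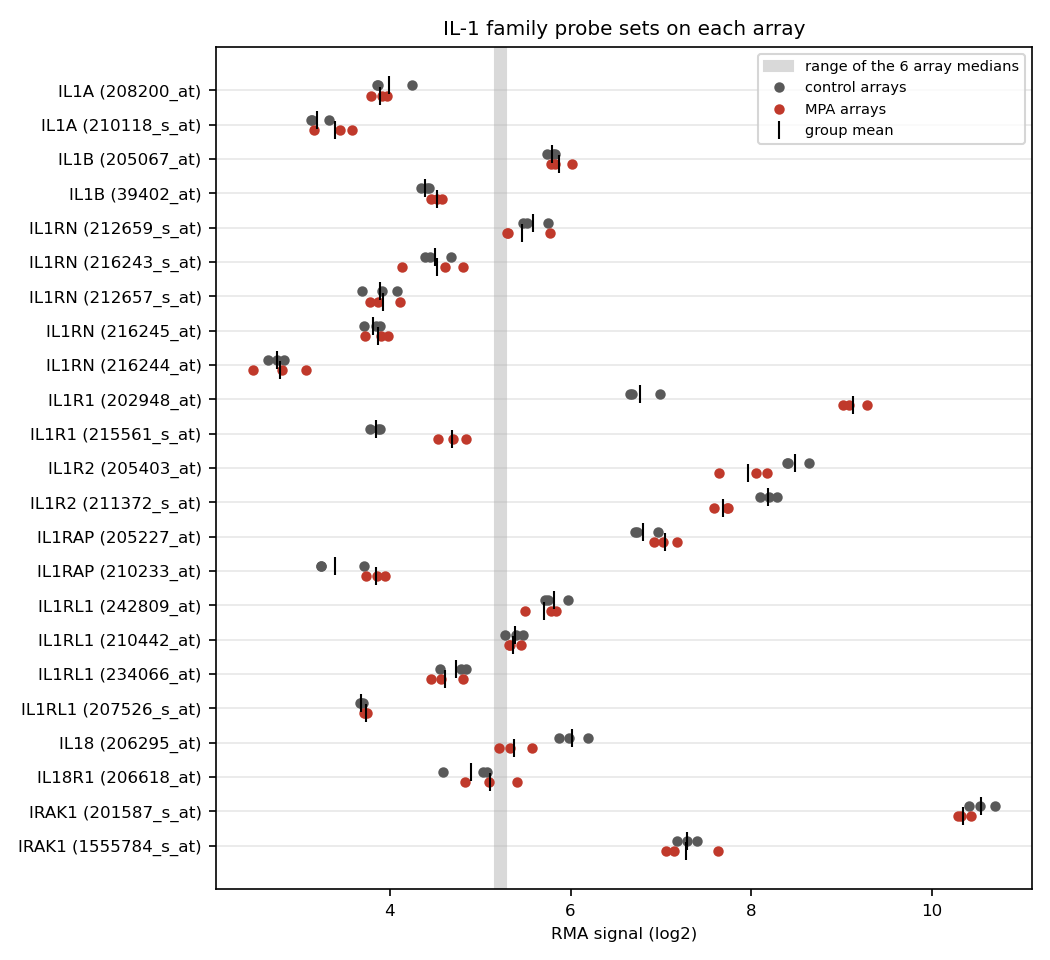
RMA signal on the log2 scale (horizontal axis) of all 23 IL-1 family probe sets on each control array (grey points) and each MPA array (red points), and a vertical mark for each group mean; the grey band is the range of the 6 array medians. The groups are furthest apart for IL1R1 (202948_at), with means of 6.77 and 9.13, while for IL1R2 and IL18 the MPA arrays lie below the control arrays.

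Since IL1R1 was the gene that rose and IL1R2 is its neighbour on the chromosome and its decoy, a promoter window of each is shown (RefSeq, build GRCh38.p14, 250 bases before to 50 after a transcription start, written 5′ to 3′). Capitals mark the letters AGAACA, the core of the element bound by progesterone and glucocorticoid receptors.
IL1R1, chr2:102141541-102141840, plus strand: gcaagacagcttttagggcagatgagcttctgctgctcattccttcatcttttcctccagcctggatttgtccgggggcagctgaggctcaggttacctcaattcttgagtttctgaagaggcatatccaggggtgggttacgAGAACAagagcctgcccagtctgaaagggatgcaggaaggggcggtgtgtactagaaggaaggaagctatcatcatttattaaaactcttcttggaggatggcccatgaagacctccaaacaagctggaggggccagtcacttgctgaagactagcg
IL1R2, chr2:101991710-101992009, plus strand: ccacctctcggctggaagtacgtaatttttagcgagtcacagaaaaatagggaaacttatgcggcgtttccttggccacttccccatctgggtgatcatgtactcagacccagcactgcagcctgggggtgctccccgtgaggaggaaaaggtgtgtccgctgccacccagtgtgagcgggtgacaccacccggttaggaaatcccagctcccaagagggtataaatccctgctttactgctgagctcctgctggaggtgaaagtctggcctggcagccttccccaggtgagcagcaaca
RefSeq windows were found for 9 of the 10 genes, 18 in all, and IL18 had none. The search covered AGAACA on both strands (TGTTCT on the other). Among the 18 windows 1 held it, the IL1R1 window above at -107 from the start, where 14.8% of 35116 windows of the same length held it. The IL1R1 gene had 4 such windows, and the one shown is the only one with these letters, which the other 3 did not hold. IL1R2 had 2 windows, both without the letters. The pair of windows shown is therefore not a comparison of the genes. The same letters as an inverted repeat with 3 bases between, the form of the complete element, were in none of the 18 windows and in 1 of 35116. A match is a description of the letters and not evidence of a site, and receptors can bind far outside such windows.

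IL1R1 encodes the chain that binds IL-1 alpha and IL-1 beta and starts the signal. On its brighter probe set (202948_at) the log2 signals were 6.65, 6.99 and 6.68 on control arrays 1 to 3 and 9.28, 9.02 and 9.09 on MPA arrays 1 to 3. Every MPA array was above every control array by more than 2 on the log2 scale, and within each group the arrays lay close together. The means were 6.77 ± 0.18 and 9.13 ± 0.14 (SD, n = 3), a log2 fold change of 2.35 (standard error 0.13, 95% interval 2.06 to 2.65, adjusted p = 8.38e-05). All control values already exceeded the median of their array, so the rise started from a signal above that of most probe sets.
The other IL1R1 probe set (215561_s_at) was dimmer, and its signals were under the median of the array on all 6 arrays. It read 3.79, 3.87 and 3.90 on the control arrays and 4.70, 4.84 and 4.53 on the MPA arrays. These groups did not overlap either, with a log2 fold change of 0.84 (standard error 0.11, adjusted p = 0.00707). The probe sets thus had the same direction and different sizes, 5.11-fold and 1.79-fold, and their mean rose by 1.60 on the log2 scale (adjusted p = 4.46e-05). The brighter probe set kept its call in all 6 fits without 1 array, with adjusted p-values of 0.000122 to 0.00137 and log2 fold changes of 2.28 to 2.46. The dimmer one lost its call without MPA 1 (adjusted p = 0.0513).

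IL1R2, the decoy receptor, had 2 probe sets, both above the array medians. On 211372_s_at the control arrays read 8.29, 8.09 and 8.19 and the MPA arrays 7.73, 7.59 and 7.74. On 205403_at they read 8.63, 8.40 and 8.40 against 8.05, 7.65 and 8.18. In both the MPA arrays lay below all control arrays, with the lowest value on MPA 2. The log2 fold changes were -0.50 (standard error 0.11, 95% interval -0.74 to -0.26, adjusted p = 0.0590) and -0.52 (standard error 0.15, 95% interval -0.87 to -0.17, adjusted p = 0.212). Neither passed the threshold, and MPA 2 lay furthest from the other MPA arrays on both.
SAM, the permutation-based test named in the study's methods, called 211372_s_at lower at delta 0.53, and did not call 205403_at; it called 3.99% of all probe sets, 2.4% higher and 1.59% lower, and 4 of the 23. In limma 211372_s_at passed once probe sets of low signal were removed (adjusted p = 0.04997) and after centring on housekeeping genes (adjusted p = 0.0283). It passed in no fit without 1 of the arrays (adjusted p of 0.0690 to 0.267). With an intensity trend (adjusted p = 0.0969) or a second quantile normalization (adjusted p = 0.0518) it did not pass. Neither did the mean of both IL1R2 probe sets (adjusted p = 0.0626).

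IL1RAP, the accessory chain shared by the receptors for IL-1 and IL-33, read 6.73, 6.97 and 6.72 on the control arrays and 7.02, 7.18 and 6.93 on the MPA arrays in its brighter probe set (205227_at). The lowest MPA value fell just under the highest control value, and the log2 fold change of 0.24 did not pass the test (95% interval -0.04 to 0.51, adjusted p = 0.591). Its dimmer probe set (210233_at), under the array median throughout, had 3.24, 3.71 and 3.24 against 3.86, 3.95 and 3.73, groups that did not overlap by a narrow margin. There the log2 fold change was 0.45 (95% interval 0.11 to 0.79, adjusted p = 0.281), the largest positive value among the probe sets not called.

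IL18 encodes a cytokine that is made as an inactive precursor by epithelial cells and drives interferon-gamma production in lymphocytes. Its probe set (206295_at) read 5.88, 5.98 and 6.20 on the control arrays and 5.33, 5.57 and 5.20 on the MPA arrays. The MPA arrays were all lower, and MPA 3 fell under the median of its own array. The means were 6.02 ± 0.16 and 5.37 ± 0.19 (SD, n = 3), a log2 fold change of -0.65 (standard error 0.14, 95% interval -0.96 to -0.34, adjusted p = 0.0575).
IL18 did not pass in limma, and SAM called it lower. In limma it passed once probe sets of low signal were removed (adjusted p = 0.0466), after centring on housekeeping genes (adjusted p = 0.0314) and among genes averaged over their probe sets (adjusted p = 0.0305); its value did not move in the filtered and the averaged fit, where fewer features were adjusted for. With an intensity trend (adjusted p = 0.0753) or a second quantile normalization (adjusted p = 0.0698) IL18 did not pass. Without 1 of the arrays its adjusted p was 0.0534 to 0.276.

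Neither IL-1 ligand gene was called. IL1B, the secreted form induced in inflammation, read 5.83, 5.81 and 5.74 on the control arrays and 5.79, 5.83 and 6.02 on the MPA arrays (205067_at), above the median of every array, with a log2 fold change of 0.09 (95% interval -0.16 to 0.33, adjusted p = 0.903). The groups overlapped, and only MPA 3 stood above the control arrays. The other IL1B probe set (39402_at) lay under the medians, with 4.35, 4.41 and 4.43 against 4.52, 4.46 and 4.58. Its groups did not overlap, and the difference of 0.12 was under the fold minimum.
IL1A, the membrane-associated and cell-death-released form of IL-1, was under the median of every array in both probe sets. The brighter (208200_at) had 4.25, 3.86 and 3.87 on control and 3.97, 3.91 and 3.79 on MPA arrays, and its log2 fold change was -0.10 (adjusted p = 0.906). The other (210118_s_at) had means of 3.20 ± 0.12 and 3.40 ± 0.21 (SD, n = 3) and overlapping groups.
The receptor antagonist gene IL1RN had 5 probe sets, none of them called. Its brightest (212659_s_at) was the only one above the array medians, with 5.75, 5.48 and 5.52 on control arrays and 5.30, 5.31 and 5.77 on MPA arrays. MPA 3 lay with the control arrays and the other MPA arrays below them, which gave a log2 fold change of -0.12 (95% interval -0.47 to 0.23, adjusted p = 0.905). In the other 4 the groups overlapped and the log2 fold changes were 0.01 to 0.05.

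The receptor for IL-33, IL1RL1, had 4 probe sets with log2 fold changes of -0.12 to 0.05 and adjusted p-values of 0.884 to 0.989. Its brightest (242809_at) read 5.75, 5.97 and 5.72 on control arrays and 5.84, 5.49 and 5.79 on MPA arrays, and the groups overlapped in part. On 207526_s_at the MPA arrays were above the control arrays, but the group means of 3.68 and 3.73 differed by 0.05 only. The IL-18 receptor chain IL18R1 had 1 probe set, with 4.58, 5.08 and 5.03 against 5.41, 5.10 and 4.83. Its groups overlapped, 5 of its 6 values were under the array medians, and the log2 fold change was 0.22 (95% interval -0.20 to 0.64, adjusted p = 0.820).
IRAK1, the kinase that carries the signal from the receptor complex to TRAF6, was well above the array medians. It read 10.70, 10.41 and 10.53 on control arrays and 10.32, 10.29 and 10.43 on MPA arrays (201587_s_at). The highest MPA value lay just above the lowest control value, and the log2 fold change was -0.20 (95% interval -0.46 to 0.06, adjusted p = 0.653). The dimmer IRAK1 probe set (1555784_s_at) had a log2 fold change of -0.02 and a wide spread on the MPA arrays, 7.05 to 7.63.
For the 7 genes other than IL1R1, IL1R2 and IL18, the lowest bound of any of the 18 intervals was -0.47 (212659_s_at of IL1RN) and the highest 0.79 (210233_at of IL1RAP), and the interval of each probe set limits that probe set only.

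**Figure D2:**
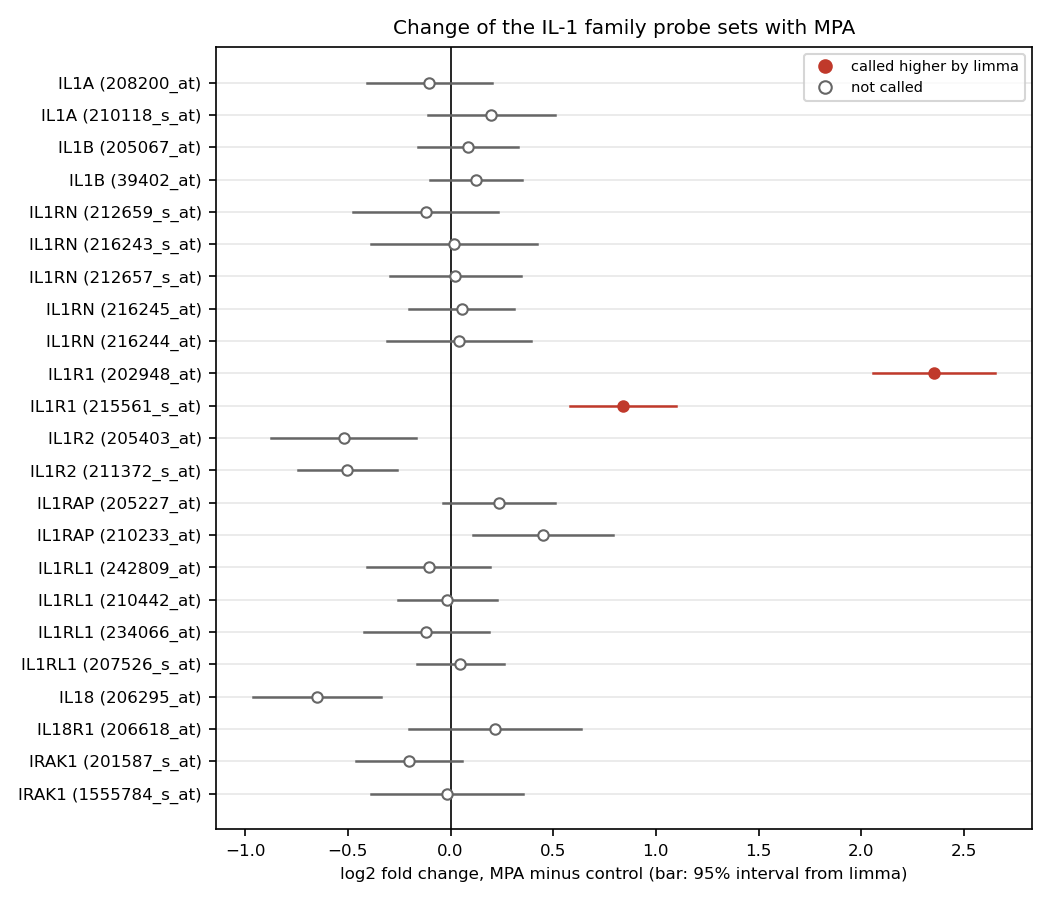
Difference in log2 signal, MPA minus control (horizontal axis, 3 arrays each) for the 23 probe sets, with 95% intervals from limma as bars; filled red points were called higher and open points were not called. The intervals of IL1R1, IL1R2, IL18 and 210233_at of IL1RAP do not reach 0, and only the IL1R1 probe sets passed the adjusted threshold.

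Most members lie in a pair of clusters on chromosome 2, and no neighbour of IL1R1 was called. In the gene table the protein-coding genes of the receptor cluster follow in the order IL1R2, IL1R1, IL1RL2, IL1RL1, IL18R1 and IL18RAP. Of these 6 IL1R1 was called, at 2.35, and IL1R2 next to it was at -0.52. The neighbour on the other side, the IL-36 receptor gene IL1RL2, read 4.38, 4.25 and 4.52 on control and 4.47, 4.61 and 4.76 on MPA arrays, with a log2 fold change of 0.23 (adjusted p = 0.618). IL18RAP, the second chain of the IL-18 receptor, was at 0.10, and MAP4K4, the gene before the cluster, had a mean of 8.69 in both groups.
The 9 genes of the ligand cluster, from IL1A through IL37 and the IL-36 genes to IL1RN, had log2 fold changes of -0.12 to 0.12, and none was called. Whether neighbouring genes differed from each other was not tested.

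**Figure D3:**
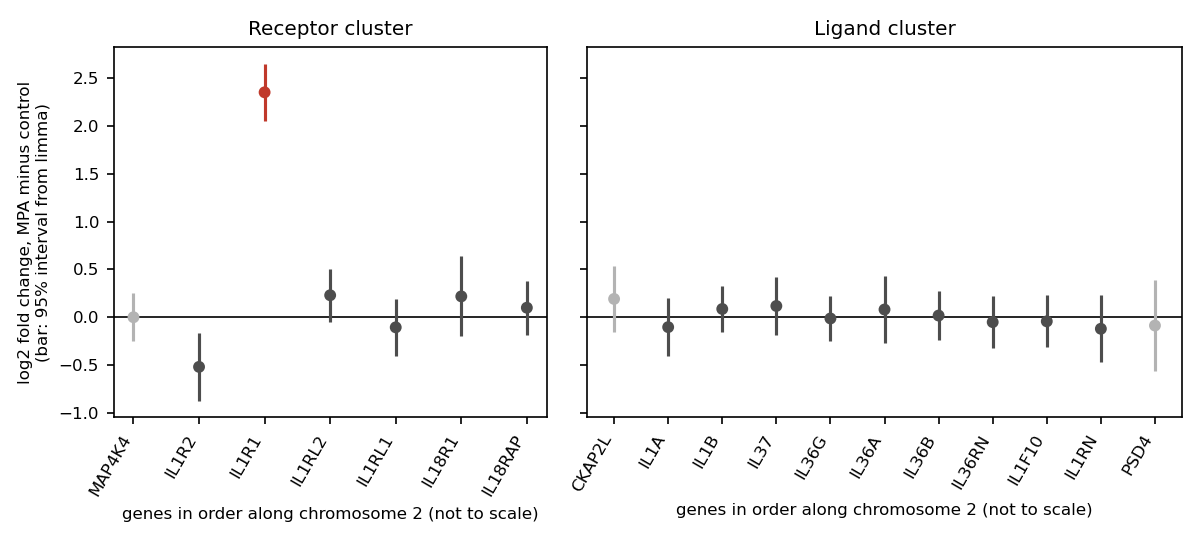
Log2 fold change with its 95% interval (vertical axis) of the brightest probe set of each gene, in gene order along chromosome 2, for the receptor cluster (left) and the ligand cluster (right); red was called higher, dark grey was not called and light grey are flanking genes. IL1R1 stands at 2.35 between IL1R2 at -0.52 and IL1RL2 at 0.23, and all genes of the ligand cluster lie near 0.

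The other genes of the pathway were counted in 4 groups by the brightest probe set of each gene, beside 2.9% of all genes called in either direction. None of the 13 other IL-1 family genes was called in limma, and none had an unadjusted p under 0.05 or a call in SAM. They included the single-Ig receptor SIGIRR, which dampens IL-1 receptor signaling and lay above the array medians (8.73 ± 0.22 and 8.87 ± 0.27, SD, n = 3), and IL33 and the IL-36 ligands IL36A, IL36B and IL36G, all under the medians. Of the 13 genes, 8 lay under the array medians on all 6 arrays, where a change may go unseen, and 4 lay above them. The median log2 fold change of this group was 0.08, and that of all genes 0.02.
Among 25 measured genes of signal transduction, NFKBIA was higher and none was lower. NFKBIA encodes the inhibitor that keeps NF-kB in the cytoplasm and is itself an NF-kB target. In its brighter probe set it rose from 9.78 ± 0.16 to 11.98 ± 0.06 (SD, n = 3), or by 2.20 on the log2 scale (limma, adjusted p = 6.17e-05). Averaged over its 2 probe sets the rise was 1.21. The dimmer NFKBIA probe set was not called, since 1 of the 62 probe sets of this group was called. The adaptor gene MYD88 was at 9.67 ± 0.17 and 9.57 ± 0.19 (adjusted p = 0.914), and the ubiquitin ligase gene TRAF6 at 7.03 ± 0.19 and 7.12 ± 0.08 (adjusted p = 0.913; SD, n = 3 each). PELI1, a ubiquitin ligase of the IRAK complex, was called higher by SAM and not by limma (log2 fold change 0.50, adjusted p = 0.168). No probe set for IRAK4 was analysed here.
Of 19 genes for processing and release of IL-1, CAPN2 was higher. It encodes the large chain of a calpain, a protease class that cleaves the IL-1 alpha precursor, and read 10.55, 10.72 and 10.65 on control and 11.48, 11.53 and 11.30 on MPA arrays, groups that did not overlap (adjusted p = 0.00745). The other CAPN2 probe set brought the mean over both to 0.35 (adjusted p = 0.203), and CAPN2 was no longer called when control 3 or MPA 1 was left out (adjusted p up to 0.0574). SAM also called the caspase gene CASP8 (log2 fold change -0.39) and the gasdermin gene GSDME (-0.45) lower, which limma did not (adjusted p = 0.124 and 0.115). The caspase-1 gene CASP1, whose product cleaves the precursors of IL-1 beta and IL-18, was at 5.69 ± 0.13 and 5.66 ± 0.02 (adjusted p = 0.982).

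Of 25 measured genes known to respond to IL-1, 3 were lower and 1 was higher, 16% of the group. The chemokine gene CXCL1 read 8.80, 8.55 and 8.86 on control and 7.45, 7.54 and 7.81 on MPA arrays, and fell by 1.14 on the log2 scale (adjusted p = 0.00395). TNFAIP2 fell by 0.88 (adjusted p = 0.0267), and NFKBIZ, a nuclear regulator of NF-kB target genes, fell by 0.71 (adjusted p = 0.0124). The gene that rose was TNFAIP3, a ubiquitin-editing enzyme that limits NF-kB signaling (3.82-fold, adjusted p = 0.000144).
CXCL8 and IL6, widely used as readouts of IL-1, lay under the array medians on all 6 arrays. IL6 had 4.89, 4.61 and 4.60 on control and 4.41, 4.13 and 4.15 on MPA arrays. CXCL8 had 3.66, 3.68 and 3.55 against 4.19, 3.78 and 3.71. In both the groups did not overlap, with MPA lower for IL6 and, by a narrow margin, higher for CXCL8. Neither passed the test (adjusted p = 0.165 and 0.622). PTGS2, the inducible prostaglandin synthase gene, was called higher by SAM and not by limma (log2 fold change 0.49, adjusted p = 0.188), and lay under the array medians. LCN2, another gene of the group, was called lower by SAM and not by limma (log2 fold change -0.94, adjusted p = 0.0553). Averaged over the 2 probe sets of each gene, the log2 fold change was -0.75 for TNFAIP2 (limma, adjusted p = 0.00759) and -1.05 for NFKBIZ (adjusted p = 0.00753). For TNFAIP3 it was 1.86 (adjusted p = 2.38e-05). CXCL1 and TNFAIP3 were called whichever array was left out. In fits without 1 array, TNFAIP2 passed when control 2 or MPA 3 was the one left out and otherwise had an adjusted p of up to 0.152, and NFKBIZ missed the threshold when control 3 or MPA 1 was dropped (adjusted p up to 0.0879).
The 4 genes called by limma thus moved in both directions, and the median log2 fold change of the 25 was -0.02. Of the 25 genes, 11 lay under the array medians on all 6 arrays, where a change may go unseen, and 10 lay above them. Among all 19775 genes, 6201 lay under the medians on all 6 arrays. No probe set for CSF2, SAA1, SAA2, BIRC3 or ZC3H12A, also listed as IL-1 responsive, was analysed here. All MPA arrays lay below all control arrays in 6 of the 25 genes and above them in 3. Over all 19775 genes the counts were 1578 below and 1772 above. These genes also respond to other signals and to steroid receptors, so the values do not measure IL-1 signaling, and no IL-1 was added to the cells.

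**Figure D4:**
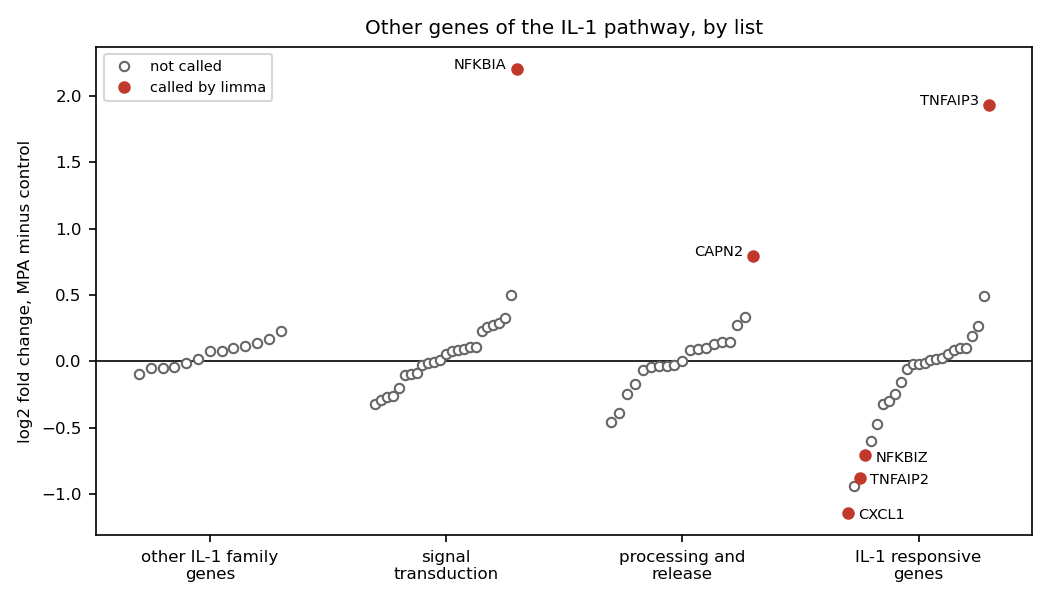
Log2 fold change of MPA against control (vertical axis, 3 arrays each) of the measured genes in 4 groups of the IL-1 pathway, each point 1 gene by its brightest probe set, sorted within a group; filled red points were called. The called genes are NFKBIA, CAPN2 and TNFAIP3 (higher) and CXCL1, TNFAIP2 and NFKBIZ (lower), and no other IL-1 family gene was called.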

How the data were processed

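RNA of untreated and MPA treated IKPRAB-36 cells was measured on 6 Affymetrix U133 Plus 2.0 arrays, 3 per group, grouped by the sample titles. The authors deposited log2 RMA signals, for which the arrays were background corrected, normalized to one another and summarized per probe set, so no further normalization was done. No RMA software version is given in these sources. Of 54675 probe sets, 62 Affymetrix controls were left out. Names came from the platform annotation, updated by Entrez identifier (41037 of 41091 probe sets with 1 symbol matched); 1801 probe sets had several symbols, 11721 had none, and neither kind was named. For counts by gene, the brightest probe set annotated to a gene alone stood for it.

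The groups were tested with limma 3.58.1 under R 4.3.3 (lmFit and eBayes, two-sided, no covariate). SAM, named in the study's methods, was coded here with the study's delta of 0.53 and used all 20 relabelings. No false discovery rate was computed for its calls, and this delta need not give the error rate that the study had. An exact permutation test of 3 against 3 arrays cannot give p under 0.1. Both tests were tried on simulated data, where limma recovered fewer of the small changes than SAM and made fewer false calls. A small change that limma did not call is thus not shown to be absent. Within groups the arrays correlated at 0.987 to 0.997, and none was a duplicate.

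All 10 members were named, with the called genes of 4 pathway lists and a few defining genes. PELI1, CASP8, GSDME, PTGS2 and LCN2 were named for calls in other settings, after their values were seen. The members and lists were chosen with earlier results of these data known. Alternatives were a replicate block, SAM, an intensity trend, other fold minimums, a filter on dim probe sets, housekeeping centring, a second quantile normalization, leaving out each array, and averaging a gene's probe sets. The number of arrays limits the precision.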

Additional observations from a re-analysis of the deposited data

How the results depend on the processing

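The count of IL-1 family probe sets called higher, 2, was 1 with a fold minimum of 2 and with dim probe sets left out, which removes the dimmer IL1R1 probe set, and 1 to 2 when each array was left out. The count called lower, 0, was 2 (IL18 and 211372_s_at of IL1R2) with SAM, with dim probe sets left out, with housekeeping centring and with the replicate block, and 0 in all fits without 1 array. Counted by gene, 1 (IL18) was lower in these 4 settings and with a gene's probe sets averaged. Of 320 comparisons of the 23 probe sets across settings, 309 kept their side of the threshold, 9 gained a call and 2 lost one. A reversal of direction was counted only where a probe set was called in either fit, and 0 were found. Probe sets not called in either fit could change sign, as 208200_at of IL1A did, from -0.10 to 0.02 without control 1. Of 1194 comparisons for 82 other pathway genes, 16 gained and 12 lost a call. LCN2, an IL-1 responsive gene at -0.94 (limma, adjusted p = 0.0553), was called lower in several of them.

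Arrays with the same number correlated in their deviations from the group means at -0.02, 0.52 and 0.33. Between control 1, 2 or 3 and MPA arrays of another number the highest correlations were 0.35, 0.08 and -0.10. The same-number value was thus the higher one for numbers 2 and 3 and not for 1. The labels do not say that the numbers pair the samples, and the main fit has no block. With the replicate block, 1208 probe sets were higher and 825 lower in place of 663 and 444 (SAM: 1313 and 868), and the adjusted p of IL18 and IL1R2 (211372_s_at) was 0.0228 and 0.0336. With the block 5 IL-1 responsive genes were lower in place of 3, IL6 among them (-0.47, adjusted p = 0.0454). With housekeeping centring CASP8 and GSDME were called lower (adjusted p = 0.0472 and 0.0479). Over all probe sets the higher and lower calls fell to 413 and 195 when control 1 was dropped, to 362 and 156 for control 3, to 353 and 176 for MPA 1 and to 460 and 279 for MPA 2, and were 357 and 153 with a fold minimum of 2. Depth does not apply to arrays; 11 of the 23 probe sets lay under the median of all 6 arrays, where RMA differences may be compressed.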
